A study of Mus musculus with 10 samples.

Results

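The regions described here are those on mouse chromosome 8 in 3 tables of 100 bp regions named after H3K4me1, H3K4me2 and H3K4me3, which are methylation states of lysine 4 of histone H3. They were taken by their chromosome name alone, which gave 1324 of 24302 H3K4me1 regions, 1460 of 29023 H3K4me2 regions and 1604 of 32293 H3K4me3 regions, or 4388 of 85618 in all. Each column was read on chromosome 8 and on the other 18 autosomes. The chromosome was picked because its regions held more reads than those of other autosomes in these same columns, so its excess is given as a description with no test, and the results below describe its size, shape and spread.

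ChIP-seq reads came from J1 mouse embryonic stem cells with a Dnmt TKO background, at passages 7 to 10, immunoprecipitated with a FLAG antibody for Dnmt3a2 or an H3K4me3 antibody. The cells expressed WWD Dnmt3a2, R Dnmt3a2 or WT Dnmt3a2, names kept as the labels give them, and all groups, WT included, shared the TKO background. The labels list 2 Dnmt3a2 samples per construct (a line numbered 1 and a bulk sample), 1 H3K4me3 sample per construct and 1 input sample, which was not analysed here. Each table held 1 Dnmt3a2 column per construct, whose name did not show which of the 2 samples it held, and the H3K4me3 table also held 1 H3K4me3 column per construct. No comparison therefore had a replicate check, and the spread over the other 18 autosomes was used as the yardstick.

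H3K4me3 marks the promoters of active and poised genes, H3K4me1 is typical of enhancers, and H3K4me2 is found at both. Dnmt3a2 is a short isoform of the de novo DNA methyltransferase Dnmt3a that is abundant in embryonic stem cells, and the histone-reading ADD domain of Dnmt3a binds the H3 tail when lysine 4 is unmethylated. ChIP-seq reads at a region depend on the target protein there and also on how much DNA of that region the cells hold. Gain of chromosome 8 is a common change in mouse embryonic stem cells kept in culture. No DNA copy number was measured in the columns used here, so more target per copy and more copies cannot be told apart.

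On chromosome 8 the regions ran from 3388338 to 131209071 in the H3K4me1 table, from 3220676 to 131178991 in the H3K4me2 table and from 3220944 to 131671329 in the H3K4me3 table (mm9 coordinates). Their density was ordinary. Chromosome 8 held 12.5 H3K4me3 regions per Mb, against a median of 13.4 on the other autosomes (9.03 to 21.6). For H3K4me2 regions it held 11.4 per Mb against 12.1 (8.47 to 19.7), and for H3K4me1 regions 10.4 per Mb against 10.3 (7.18 to 15.6). The median gap between neighbouring H3K4me3 regions was 13.1 kb on chromosome 8 and 13.6 kb on the median other autosome. Gaps up to 5 kb made up 19.2% of those between H3K4me1 regions, just above the other autosomes (15.1% to 18.8%). Between H3K4me2 regions they made up 23.3%, just below them (23.7% to 28.2%), and between H3K4me3 regions 38.2%, within them (37.0% to 42.3%). The number of regions on chromosome 8 lay within the range of the other autosomes, and the results below concern the number of reads per region.

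H3K4me3 signal per region was higher on chromosome 8 than on each other autosome in all 3 constructs. Levels are mean reads at a region for every 10000000 reads in the library. The mean H3K4me3 level on chromosome 8 was 40.5 in WWD, 38.7 in R and 46.4 in WT. The median other autosome had 30.7 in WWD, 28.4 in R and 34.0 in WT. Chromosome 8 over the median autosome was therefore 1.32 in WWD, 1.36 in R and 1.36 in WT. The other 18 autosomes lay between 0.881 and 1.10 in WWD, between 0.891 and 1.11 in R, and between 0.902 and 1.12 in WT, with an SD over chromosomes of 0.0693, 0.0698 and 0.0653. Chromosome 8 was 4.80, 5.13 and 5.56 of these SDs above their mean, and the next highest was chromosome 19 in WWD and R and chromosome 16 in WT. Chromosome X, whose regions are given for scale, lay at 0.600 in WWD, 0.622 in R and 0.558 in WT. Counting intervals (95%) were narrow, for example 1.36 to 1.37 in WT, but they treat reads as independent, and PCR reads are not independent molecules. The regions of chromosome 8 made up 5.13% of the autosomal H3K4me3 regions and held 6.71% of the autosomal H3K4me3 reads of the table in WWD, 6.81% in R and 6.83% in WT.

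**Figure D1:**
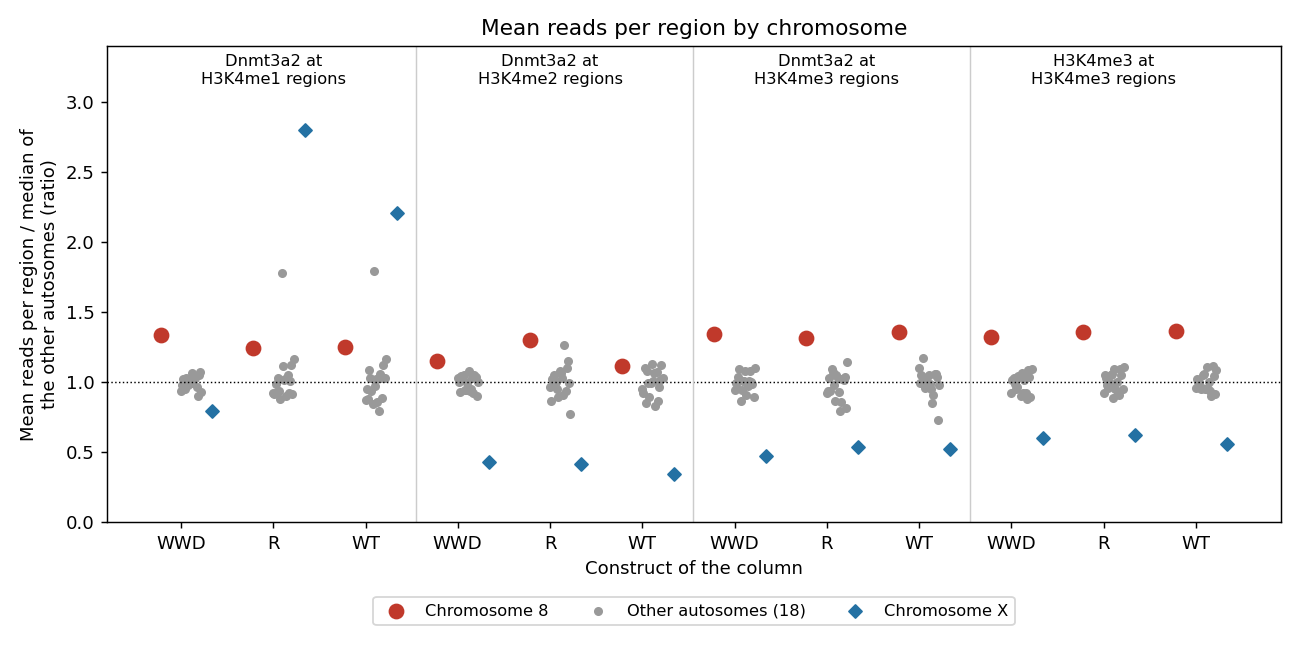
Mean reads per region on each chromosome divided by the median over the other 18 autosomes (vertical axis, ratio), for the 12 columns grouped by assay and table (horizontal axis, construct). Chromosome 8 (large circles) lies between 1.12 and 1.36, above every other autosome in 9 of 12 columns, and chromosome X (diamonds) is drawn for scale.

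Most H3K4me3 regions held an H3K4me3 read on every autosome, so the share of regions with a read had little room to differ, and the excess is seen in the reads per region. No H3K4me3 read was present at 10.8% of chromosome 8 regions in WWD (exact Clopper-Pearson 95% interval 9.31% to 12.4%), against 12.0% on the other autosomes pooled. In R the share was 15.7% (14.0% to 17.6%) against 18.0%, and in WT 7.54% (6.30% to 8.95%) against 8.15%. These shares lay within the range of single other autosomes, which was 9.95% to 14.6% in WWD, 15.3% to 21.6% in R and 6.48% to 10.6% in WT. Averaged over regions with a read, there were 118 reads on chromosome 8 and 89.99 on the other autosomes in WWD. The same means were 126 and 95.7 reads in R, and 94.3 and 70.0 reads in WT.

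The shift reached weak and strong H3K4me3 regions alike. At the 25th percentile of regions the level was 8.07 on chromosome 8 and 5.77 on the other autosomes in WWD, 5.11 and 2.55 in R, and 9.44 and 6.91 in WT. The median region stood at 24.8 against 19.8 in WWD, at 24.4 against 17.5 in R and at 30.1 against 22.3 in WT, which are ratios of 1.25, 1.40 and 1.35. At the 75th percentile the ratio was 1.34 in WWD, 1.36 in R and 1.33 in WT. At the 90th percentile it was 1.30, 1.27 and 1.30 in the same order. The 99th percentile was further apart, at 210.2 against 149 in WWD, 218 against 152 in R and 235 against 162 in WT, or 1.41, 1.43 and 1.45 times. At each of these percentiles chromosome 8 ranked 1 of 19 autosomes in all 3 constructs. The 10th percentile did not separate it: there chromosome 8 and the other autosomes pooled were both at 0 in WWD and R and at 1.06 in WT.

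**Figure D2:**
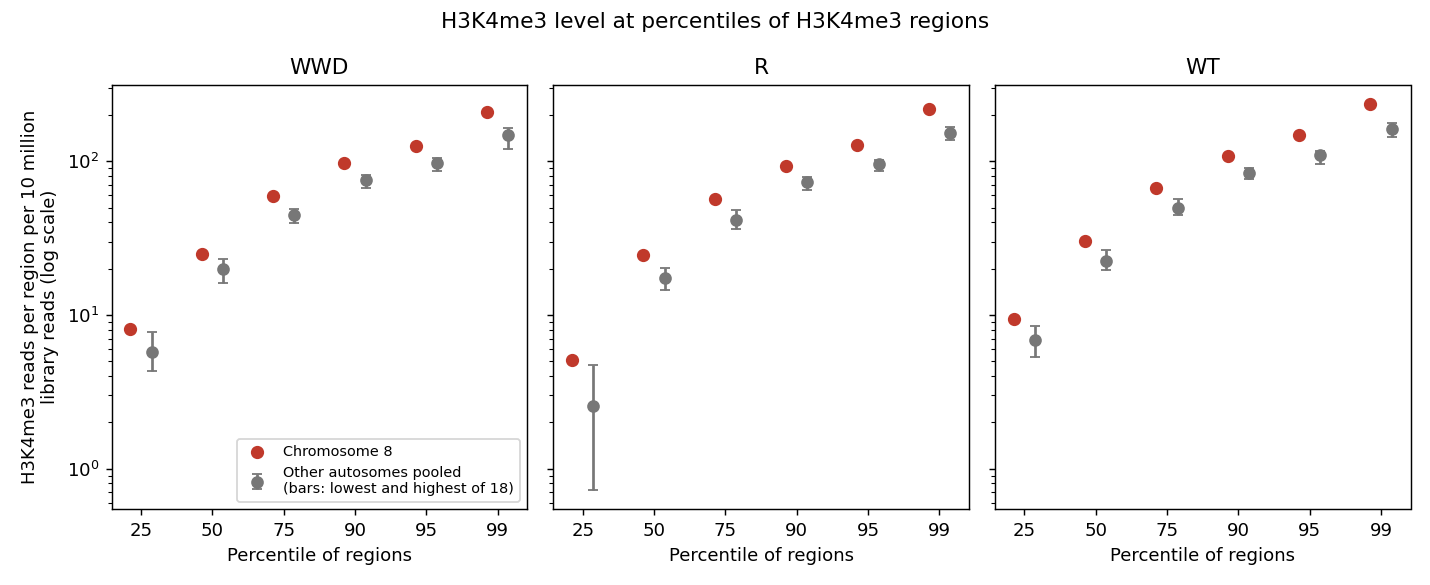
H3K4me3 reads per region per 10000000 library reads (vertical axis, log scale) at percentiles of the H3K4me3 regions (horizontal axis), with a panel per construct. Circles on the left are chromosome 8, and circles on the right are the other autosomes pooled with bars from the lowest to the highest of the 18. Chromosome 8 lies above the bars at each percentile drawn.

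The strongest regions were the most unevenly shared out. Of the autosomal regions in the top 1% by H3K4me3, 53 of 311 lay on chromosome 8 in WWD, which is 17.0% (13.0% to 21.7%). In R they were 46 of 304, or 15.1% (11.3% to 19.7%), and in WT 52 of 308, or 16.9% (12.9% to 21.5%). All 3 shares were above the 5.13% of regions that the chromosome holds. The chromosome was picked for its excess in these same reads, so shares above 5.13% go with that choice. Of the top 10%, chromosome 8 held 8.39% in WWD, 8.33% in R and 8.50% in WT. Put another way, 16.2% of its regions in WWD, 16.2% in R and 16.3% in WT reached the top 10%, against 9.57%, 9.65% and 9.50% of regions on the other autosomes.

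Along the chromosome the H3K4me3 excess was broad but not even. Chromosome 8 and each other autosome were divided into 10 blocks of equal numbers of regions, here 160 or 161 regions each, and block means were divided by the median of the 180 blocks of the other autosomes. On this scale 9 of the 10 chromosome 8 blocks lay above 1 in each construct, whereas no other autosome had more than 8. Blocks 1 to 3, from 3220944 to 64029277, lay between 1.33 and 1.47 in the 3 constructs, where block 1 ranked 1 and blocks 2 and 3 ranked 2 or 3 of the 19 autosomes. Block 4, from 64069101 to 74049941, was at 1.87 in WWD, 1.93 in R and 1.86 in WT. Block 5, from 74061116 to 86297049, was the highest of the chromosome, at 1.99, 2.01 and 1.96 in the same order. No other autosome reached these values at the same block, where their highest WT means were 1.26 for block 4 and 1.43 for block 5. Block 6, up to 90482121, was still at 1.49 in WWD, 1.55 in R and 1.59 in WT.

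The distal blocks looked different. Blocks 7 and 8, from 90483079 to 113969968, were at 1.12 to 1.22, within the range of the other autosomes at those blocks. Block 9, from 114045568 to 124353726, fell below 1 in all 3 columns, at 0.624 in WWD, 0.697 in R and 0.783 in WT, which ranked 19, 18 and 18 of the 19 autosomes at that block. Block 10, up to 131671329, was close to 1, at 1.01, 1.02 and 1.07. Leaving out the highest block lowered the ratio of chromosome 8 to the median autosome to 1.25 in WWD, 1.29 in R and 1.30 in WT, still above the highest other autosome. Block means varied more on chromosome 8 than on the median other autosome. The coefficient of variation was 0.295 in WWD, 0.290 in R and 0.261 in WT, against medians of 0.171, 0.180 and 0.158. The highest other autosome was at 0.287, 0.290 and 0.281. Chromosome 8 was just above that in WWD, level with it in R and below it in WT.

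**Figure D3:**
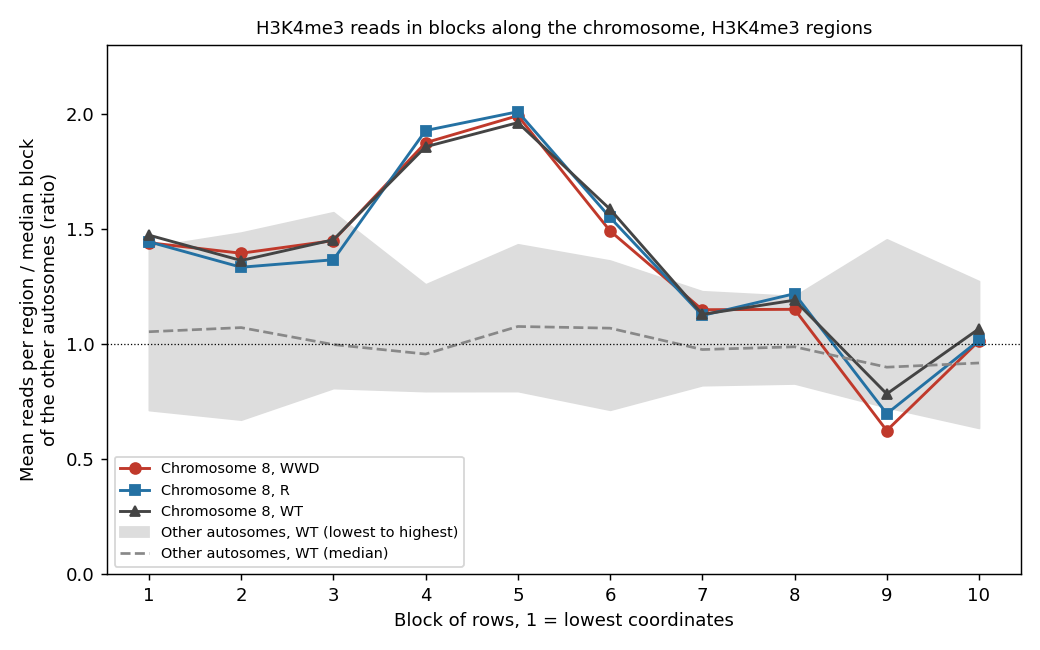
Mean H3K4me3 reads per region in 10 equal blocks of rows along chromosome 8 (horizontal axis, block 1 has the lowest coordinates), divided by the median block of the other autosomes (vertical axis, ratio). Lines with markers are the 3 constructs on chromosome 8, and the band and dashed line are the range and median of the other 18 autosomes in WT. All 3 constructs peak at block 5, at 1.96 to 2.01, and dip at block 9, at 0.624 to 0.783.

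The medians and the strongest regions of the blocks followed the means. The median region of block 5 had a level of 46.5 in WWD, 42.5 in R and 48.1 in WT, whereas that of block 9 had 10.4, 8.93 and 14.1. In block 5, 43 of 160 regions in WWD, 38 in R and 46 in WT were among the top 10% of autosomal regions, and in block 9 only 5, 8 and 9 were. Regions without an H3K4me3 read made up 3.75% of block 5 in WWD, 8.13% in R and 3.13% in WT, against 18.8%, 23.1% and 10.0% of block 9. The order of the 10 blocks was nearly the same in the 3 columns, with Spearman's rho of 0.988 for WWD and R, 0.988 for WWD and WT and 1 for R and WT (a description over 10 blocks of the same regions, with no test).

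The 5 regions with the highest mean H3K4me3 lay in blocks 1 and 5. The highest mean H3K4me3 of chromosome 8 was at 19784863 to 19784962 in block 1, with 791 reads in WWD cells, 1057 in R cells and 892 in WT cells. It was nearly matched by 75094805 to 75094904 in block 5, with 1052, 1013 and 719 reads. Another region, 82235381 to 82235480, also in block 5, had 878 reads in WWD cells, 1173 in R cells and 600 in WT cells. At 20019787 to 20019886 there were 738, 920 and 782 reads, and at 14090113 to 14090212 there were 819, 888 and 505 reads. Dnmt3a2 reads at these 5 regions were at most 8 in any column, and none of the regions was among the 5 with the most Dnmt3a2. The 8 reads were at 82235381 in WWD and at 20019787 in WT. In these thin columns that is not low, since 8.79% of chromosome 8 H3K4me3 regions held at least 5 in WWD and 5.67% in WT. These files name no genes for their regions, which are therefore given by position only.

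Dnmt3a2 reads were also more frequent on chromosome 8, though these columns were much thinner. At H3K4me3 regions the mean Dnmt3a2 level on chromosome 8 was 0.657 in WWD, 0.250 in R and 0.235 in WT, against 0.488, 0.190 and 0.173 on the median other autosome. The ratios were 1.35 in WWD (counting interval 1.28 to 1.41), 1.32 in R (1.24 to 1.40) and 1.36 in WT (1.27 to 1.45). The other autosomes lay between 0.869 and 1.10 in WWD, between 0.793 and 1.15 in R and between 0.730 and 1.17 in WT. These ratios rest on 1819, 1012 and 904 reads on chromosome 8. Dnmt3a2 and H3K4me3 columns thus gave nearly the same ratio at these regions, although the H3K4me3 columns held 139803 to 170083 reads there. Among the 193 chromosome 8 regions that lay over 5 kb from any other listed region, the Dnmt3a2 ratio was 1.05 in WWD, 0.867 in R, where it turned below 1, and 1.32 in WT. The H3K4me3 ratio at those regions was 1.53 in WWD, 1.68 in R and 1.70 in WT. The likeness of the ratios over all H3K4me3 regions thus did not hold there.

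At H3K4me1 regions the Dnmt3a2 level on chromosome 8 was 1.12 in WWD, 0.485 in R and 0.564 in WT, against 0.840, 0.391 and 0.452 on the median other autosome. The ratios were 1.34 (1.29 to 1.39), 1.24 (1.18 to 1.30) and 1.25 (1.19 to 1.31). In WWD no other autosome was above 1.07. In R and WT chromosome 9 was higher, at 1.78 and 1.80, and 1 region there, chromosome 9 3015676 to 3015775, held 1180 reads in R and 1246 in WT. With reads capped at 20 per region, chromosome 9 fell to 0.973 in R and 0.993 in WT, and chromosome 8 ranked 1 of 19 at 1.29 in R, 1.28 in WT and 1.35 in WWD. Chromosome X was at 0.796 in WWD, 2.80 in R and 2.21 in WT, and at 0.636, 1.09 and 1.16 with the cap.

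At H3K4me2 regions the excess was smaller than in the other tables in WWD and WT, but not in R. The level on chromosome 8 was 0.624 in WWD, 0.405 in R and 0.336 in WT, against 0.542, 0.311 and 0.301 on the median other autosome. The ratio was 1.15 in WWD (1.10 to 1.21), 1.30 in R (1.24 to 1.37) and 1.12 in WT (1.05 to 1.18). In WT this did not stand apart, since chromosome 10 was at 1.13 and chromosome 8 ranked 3 of 19. In WWD and R it ranked 1, and the next were chromosome 11 at 1.08 in WWD and chromosome 14 at 1.26 in R.

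In the thinner Dnmt3a2 columns most regions held no read, and the share that held one was higher on chromosome 8. At H3K4me1 regions a read was present at 48.6% of chromosome 8 regions in WWD (45.9% to 51.4%), 23.0% in R (20.7% to 25.3%) and 27.6% in WT (25.2% to 30.1%). The median other autosome had 39.2%, 18.3% and 22.4%. At H3K4me3 regions the shares were 31.7% in WWD (29.5% to 34.1%), 13.0% in R (11.4% to 14.7%) and 13.6% in WT (12.0% to 15.4%), against 25.6%, 9.57% and 9.80%. At H3K4me2 regions they were 34.6% in WWD, 19.9% in R and 18.0% in WT, against 29.7%, 15.3% and 16.1%. Over the 9 Dnmt3a2 columns the share on chromosome 8 was 1.12 to 1.39 times that of the median other autosome. It was the highest of the 19 autosomes in 8 of them, and ranked 4 in WT at H3K4me2 regions.

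Regions with a Dnmt3a2 read, by contrast, held about as many reads on chromosome 8 as elsewhere. At H3K4me3 regions they held 3.57 reads on chromosome 8 and 3.30 on the other autosomes in WWD, 4.87 and 4.80 in R, and 4.15 and 4.23 in WT. At H3K4me2 regions the pairs were 3.11 and 3.15 in WWD, 5.13 and 5.05 in R, and 4.48 and 4.38 in WT. At H3K4me1 regions they were 3.99 and 3.69 in WWD, 5.34 and 5.55 in R, and 4.90 and 4.92 in WT. Regions with at least 5 reads were more common as well. They made up 8.79% of chromosome 8 H3K4me3 regions and 6.27% of those on the other autosomes in WWD, 5.99% and 4.45% in R, and 5.67% and 3.88% in WT. At H3K4me1 regions the shares were 16.5% and 11.7% in WWD, 11.4% and 9.13% in R, and 11.5% and 9.69% in WT. At H3K4me2 regions they were closer in WWD (7.33% and 6.66%) and WT (6.85% and 6.39%) than in R (9.45% and 7.31%).

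More chromosome 8 regions were hit in more than 1 construct. At H3K4me3 regions, 18 of 1604 held a Dnmt3a2 read in all 3 columns, which is 1.12%, against 0.445% on the other autosomes, where single chromosomes ranged from 0.251% to 0.657%. A further 158, or 9.85%, held a read in 2 columns, against 6.05%. At H3K4me1 regions 3.47% held a read in all 3 columns, against 1.95% (1.24% to 2.45% over single autosomes). At H3K4me2 regions the share was 1.51% against 1.16%, inside the range of 0.677% to 1.63%. Regions with no Dnmt3a2 read in any column made up 53.8% of chromosome 8 H3K4me3 regions, against 61.8% elsewhere, and 29.7% of its H3K4me1 regions, against 39.4%. Shares hit in several columns move with the share hit in each, and their part in this was not separated.

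The Dnmt3a2 profile along the chromosome did not closely follow that of H3K4me3. With the same division into 10 blocks, 9 blocks lay above the median block in WWD, 8 in R and 9 in WT at both H3K4me1 and H3K4me3 regions, while no other autosome had as many. At H3K4me2 regions the counts were 6 in WWD, 8 in R and 5 in WT, and 7, 1 and 11 other autosomes had as many. The highest block differed between columns. At H3K4me3 regions it was block 1 in WWD at 1.67, block 4 in R at 2.11 and block 6 in WT at 2.00. The lowest was block 10 in WWD at 0.924, block 8 in R at 0.717 and block 5 in WT at 0.641. Block 5 was where H3K4me3 peaked, but the low WT value there rests on 42 reads. Dnmt3a2 in WWD and R was high at block 5, at 1.65 and 1.72, and both ranked 1 among the autosomes at that block. At H3K4me1 regions the highest was block 3 in WWD at 1.79, block 7 in R at 1.88 and block 2 in WT at 1.85. Each of these blocks held 42 to 338 Dnmt3a2 reads at H3K4me1 or H3K4me3 regions, so single blocks are thinly covered.

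**Figure D4:**
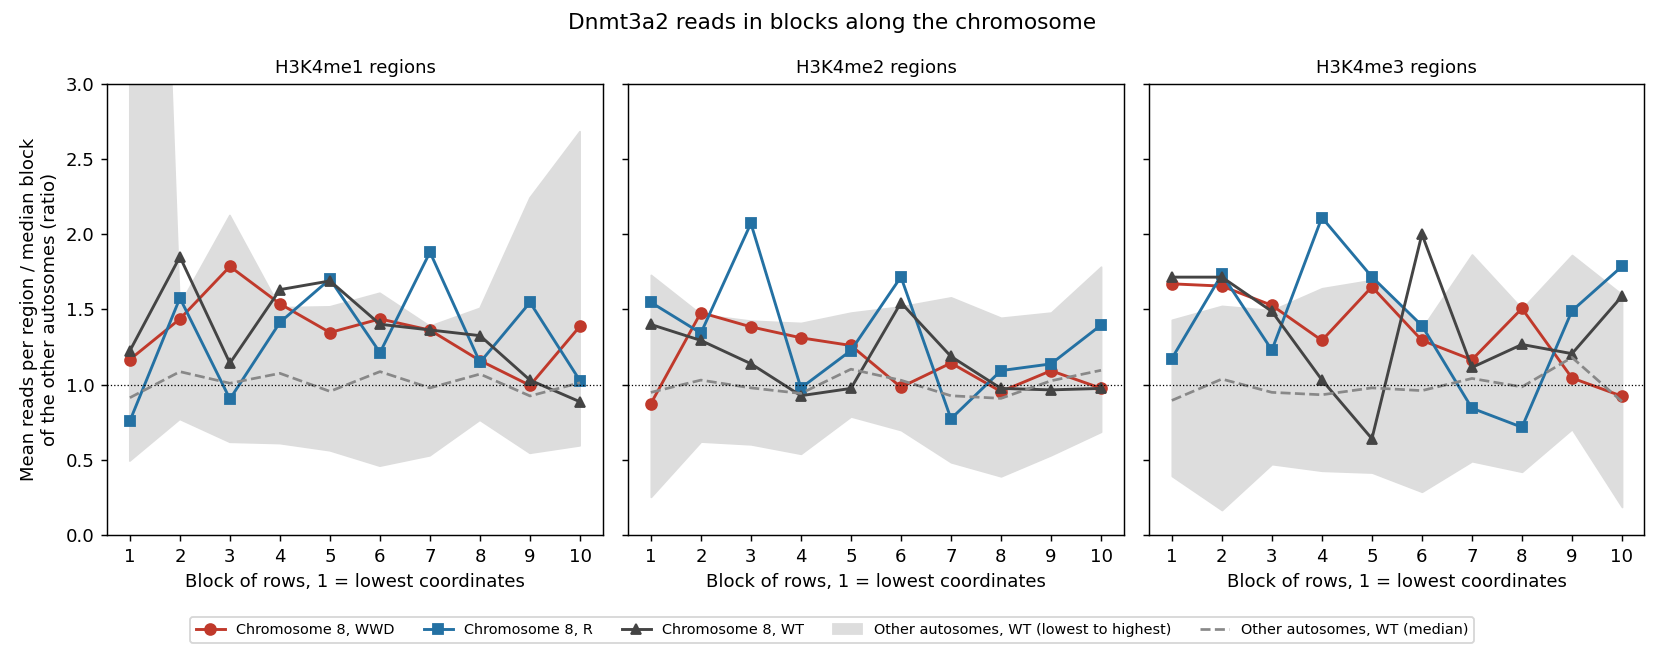
Mean Dnmt3a2 reads per region in 10 equal blocks of rows along chromosome 8 (horizontal axis), divided by the median block of the other autosomes (vertical axis, ratio), in a panel per table. Lines with markers are the constructs on chromosome 8, and the band and dashed line are the range and median of the other 18 autosomes in WT. The band leaves the axis at block 1 of the H3K4me1 panel, where it reaches 10.6. Lines of the 3 constructs cross one another, and most points lie above 1.

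Block by block, as a description over 10 blocks, the Dnmt3a2 columns went together moderately for R and WT at H3K4me1 and H3K4me2 regions and little in the other pairs. At H3K4me3 regions rho was -0.22 for WWD and R, 0.26 for WWD and WT and -0.12 for R and WT. It was -0.13, 0.26 and 0.59 at H3K4me1 regions and -0.05, -0.14 and 0.55 at H3K4me2 regions, in the same order. Against H3K4me3 of the same construct rho was 0.54 in WWD, 0.20 in R and -0.12 in WT. The columns of a table share the same regions and their base composition.

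The Dnmt3a2 excess was next set against the H3K4me3 level of the regions. H3K4me3 regions of the 19 autosomes were split into quintiles by mean H3K4me3 over the 3 constructs, and 466 of the chromosome 8 regions, or 29.1%, fell in the top quintile. The quintiles were cut on H3K4me3 reads that were themselves raised on chromosome 8. A quintile may thus hold unlike regions on chromosome 8 and elsewhere. In the top quintile the Dnmt3a2 level on chromosome 8 was 0.726 in WWD, 0.214 in R and 0.213 in WT, against 0.473, 0.163 and 0.127 on the other autosomes pooled. These are ratios of 1.54 in WWD (counting interval 1.41 to 1.67), 1.32 in R (1.15 to 1.50) and 1.67 in WT (1.45 to 1.91). In the bottom quintile the ratio was 1.22 in WWD (1.10 to 1.36), 1.35 in R (1.18 to 1.54) and 1.01 in WT (0.871 to 1.18). The middle quintiles gave 1.49, 1.35 and 1.09 in WWD, 1.13, 1.64 and 1.51 in R, and 1.94, 1.09 and 1.39 in WT. Among these, intervals held 1 for 1.09 in WWD (0.953 to 1.23), 1.13 in R (0.955 to 1.33) and 1.09 in WT (0.895 to 1.32). The ratios had no steady order over the quintiles in any construct.

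**Figure D5:**
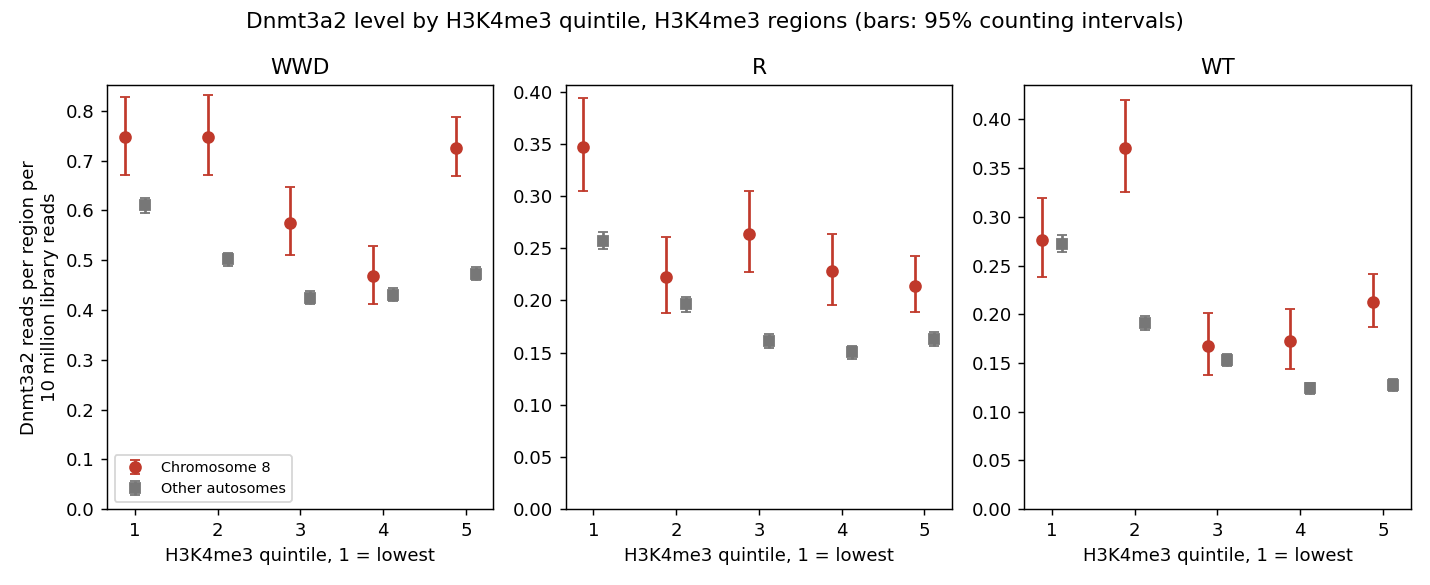
Dnmt3a2 reads per region per 10000000 library reads (vertical axis, scaled separately in each panel) at H3K4me3 regions in quintiles of mean H3K4me3 (horizontal axis, 1 is the lowest), with a panel per construct. Circles are chromosome 8, squares are the other autosomes pooled, and bars are 95% counting intervals, which treat reads as independent. Chromosome 8 lies above the other autosomes in every quintile, by 1.01 to 1.94 times, though the interval of the ratio holds 1 in some quintiles of each construct.

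The mix of regions on chromosome 8 was close to that elsewhere. Of its H3K4me3 regions 47.7% lay within 500 bp of a region of another table, against 48.6% on the other autosomes, and the pairs were 54.0% and 54.1% for H3K4me2 regions and 13.3% and 13.4% for H3K4me1 regions. At H3K4me3 regions near another table's region, H3K4me3 on chromosome 8 was 1.36 times that of the other autosomes in WWD, 1.33 in R and 1.36 in WT. At H3K4me3 regions away from them it was 1.31, 1.39 and 1.36. Dnmt3a2 at the same near regions was 1.33 times as high in WWD, 1.39 in R and 1.45 in WT, and at those away 1.35, 1.31 and 1.27. For H3K4me1 regions the ratio was 1.36 near another region and 1.34 away in WWD, 1.32 and 1.19 in R, and 1.63 (1.42 to 1.86) and 1.18 (1.12 to 1.24) in WT. The away regions of the other autosomes included the chromosome 9 region with 1180 reads in R and 1246 in WT. It lowers the away ratios of R and WT, and its part in the contrast was not separated. For H3K4me2 regions it was 1.14 near and 1.16 away in WWD, 1.17 (1.08 to 1.27) and 1.41 (1.31 to 1.51) in R, and 1.09 and 1.17 in WT.

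The constructs differed on chromosome 8 much as they did on the other autosomes. Dnmt3a2 at H3K4me3 regions of chromosome 8 was 2.80 times as high in WWD as in WT (2.58 to 3.04), and on the other autosomes pooled it was 2.81 times. R over WT was 1.06 on chromosome 8 (0.972 to 1.17) and 1.07 elsewhere. At H3K4me1 regions WWD over WT was 1.99 on chromosome 8 (1.87 to 2.12) and 1.82 elsewhere, and R over WT was 0.860 (0.803 to 0.920) and 0.875. The reads elsewhere included the chromosome 9 region with 1180 reads in R and 1246 in WT. For WWD over WT, chromosome 8 over elsewhere was 1.09 pooled, 1.05 with reads capped at 20 and 1.04 against the median autosome. At H3K4me2 regions WWD over WT was 1.86 (1.72 to 2.00) and 1.83, and R over WT was 1.20 (1.12 to 1.30) and 1.05. The R to WT ratio at H3K4me2 regions ranked 3 of the 19 autosomes, whose others ranged from 0.774 to 1.28. In H3K4me3 itself, WWD over WT was 0.874 on chromosome 8 and 0.890 elsewhere, and R over WT was 0.834 and 0.837. All 8 chromosome 8 ratios lay within the range of the other autosomes.

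Single H3K4me3 regions differed between constructs about as often as elsewhere. On a scale of log2 of the level plus a pseudocount of 3.72, 120 of the 1604 regions, or 7.48%, were over 2-fold higher in WWD than in WT, where 8.44% of all regions were. Over 2-fold lower in WWD were 231, or 14.4%, where 15.4% of all regions were. In R, 143 regions, or 8.92%, were higher than in WT, where 9.06% of all regions were, and 383, or 23.9%, were lower, where 24.7% were. All 4 shares were near those of the whole table and within the range of the other autosomes. A pseudocount at the median level left 8 higher and 25 lower regions for WWD, and 15 higher and 76 lower regions for R. Of all regions, 0.523% were then higher and 1.59% lower for WWD, and 1.07% higher and 4.60% lower for R. Over single regions, Spearman's rho between the WWD and WT columns was 0.88 on chromosome 8 and 0.85 on the other autosomes, and between R and WT it was 0.83 and 0.79.

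The largest differences among regions above the median level of the table are given as read counts, since each rests on 1 library per construct. WWD exceeded WT most at 82204591 to 82204690 in block 5, with 171 reads in WWD cells, 52 in R cells and 4 in WT cells. The next was at 35069001 to 35069100, with 166, 41 and 23 reads, where Dnmt3a2 also had 14 reads in WWD cells, 0 in R cells and 3 in WT cells. In the other direction, 15027898 to 15027997 had 3 reads in WWD cells, 61 in R cells and 84 in WT cells, and 109035766 to 109035865 had 13, 153 and 98. These regions were higher or lower in WWD than in both other columns.

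For R the highest value against WT was at 28316917 to 28317016, with 57 reads in WWD cells, 211 in R cells and 16 in WT cells. At 73215312 to 73215411 there were 55, 230 and 28 reads. Lowest in R was 94325735 to 94325834, with 146 reads in WWD cells, 4 in R cells and 121 in WT cells, and 13 Dnmt3a2 reads in R but 0 in WWD and WT. Its neighbour at 94325414 to 94325513, itself among the 5 highest for WWD against WT, had 90 reads in WWD cells, 58 in R cells and 16 in WT cells, so R was low at one and not at the other. At 122202464 to 122202563 there were 55 reads in WWD cells, 0 in R cells and 82 in WT cells, and at 119256846 to 119256945 there were 150, 10 and 152. Both lay in block 9, the block with the lowest H3K4me3 mean of the chromosome.

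The regions with the most Dnmt3a2 reads on chromosome 8 were modest in height. Among H3K4me1 regions the first, 19930169 to 19930268, had 15 reads in WWD cells, 65 in R cells and 39 in WT cells, and the second, 81699703 to 81699802, had 6, 18 and 8. The first lies between 2 of the strong H3K4me3 regions named above. In the H3K4me2 table the first was 87981406 to 87981505, with 0 reads in WWD cells, 5 in R cells and 32 in WT cells, and the second was 36557367 to 36557466, with 6, 20 and 0. Among H3K4me3 regions the first, 122985931 to 122986030, had 11 Dnmt3a2 reads in WWD cells, 1 in R cells and 15 in WT cells, but 1, 0 and 0 H3K4me3 reads. The second, 72566728 to 72566827, had 7, 13 and 9 Dnmt3a2 reads with 718, 840 and 442 H3K4me3 reads. Both H3K4me1 regions and both H3K4me3 regions held a read in all 3 constructs, and the H3K4me2 regions in 2 of them. The ranking summed these 3 columns, so it selects on the same reads. Further down, the third H3K4me1 region had 6, 0 and 22 reads. The third H3K4me3 region had 11, 6 and 10 Dnmt3a2 reads and the fourth had 12, 12 and 0.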

How the data were processed

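Per the submitters' processing notes, reads were aligned with Bowtie to mm9; the sources used here do not give the version, read filters or region calling. Per the labels' protocols, chromatin was cut to 160 to 480 bp and libraries had 18 PCR cycles. The deposited log2 values are reads per region scaled by a factor per column, per the file headers, which also give the library totals (17259400 to 27424019 reads). Whole reads were recovered as floor((2 to the power of the value, minus 1) / factor), since the values had the form log2 of 1 plus the factor times reads plus a random amount below 1. That form was inferred from the values, and its inversion was tested on simulated data. A further 2 columns matched no listed sample and were not used, nor was the input.

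Means per chromosome were divided by the median over the other 18 autosomes. Intervals are 95% exact counting intervals (Poisson, conditional binomial or Clopper-Pearson), which cover counting error only. No test was run. The members, lists and rules were chosen with earlier results of these data known. Regions were named by rank of mean H3K4me3, of log2 ratio to WT above the table's median, or of summed Dnmt3a2 level, 5 each, shortened from the top. Alternatives changed the autosome reference, cap, isolation, read filter, blocks, pseudocount and centring. Python 3.11.15, numpy 2.4.6, pandas 2.3.3, scipy 1.17.1 and matplotlib 3.10.9 were used.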

Additional observations from a re-analysis of the deposited data

How the results depend on the processing

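For 48 results, 192 values under other settings were computed: 143 were classed as unchanged, 44 as moved, and 5 turned direction. Unchanged meant within the error of the reported value, except for the counts of regions past 2-fold. Those counts were classed more loosely, and some unchanged ones lay beyond the counting interval of the reported share. The cause was not tested for any of them, except where fewer regions or reads, or a random amount per region, enter by construction.

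Keeping only regions hit in at least 2 of 3 Dnmt3a2 columns selects on the reads compared, so it takes out by construction an excess in the share of regions hit. The ratio was then 1.06 in WWD, 1.02 in R and 1.10 in WT at H3K4me1 regions, 1.14, 1.03 and 1.12 at H3K4me3 regions, and 0.929, 0.979 and 0.948, below 1, at H3K4me2 regions. With deposited values taken out of the log scale it was 1.25, 1.17 and 1.16 at H3K4me1 regions, 1.22, 1.16 and 1.16 at H3K4me3 regions, and 1.17 in R at H3K4me2 regions. By the inferred form, those values keep the random amount below 1, also at regions with no read. By construction that amount draws the ratio of a thin column toward 1. Isolated regions gave 1.42, 1.31 and 1.32 at H3K4me1 regions, 1.38 in WT at H3K4me2 regions, and 1.05 in WWD, 0.867 in R, reversed, and 1.32 in WT at H3K4me3 regions. With 5 blocks, 100% lay above the median block in WWD and R at H3K4me1 regions, in WWD at H3K4me2 regions and in WT at H3K4me3 regions.

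The H3K4me3 ratio was 1.33 in WWD, 1.35 in R and 1.36 in WT against the other autosomes pooled, and 1.29, 1.34 and 1.35 in regions read in 2 of 3 columns. It was 1.53, 1.68 and 1.70 in isolated regions and 1.04, 1.06 and 1.04 with reads capped at 20, which by construction removes most reads of strong regions. Without the highest block, an alternative chosen after seeing the data, it was 1.25, 1.29 and 1.30, and Dnmt3a2 in R at H3K4me2 regions was 1.22. The construct ratio on chromosome 8 over that elsewhere moved with the cap to 1.01 for WWD over WT in H3K4me3, now above 1, and to 1.01 for R over WT. For Dnmt3a2 in R over WT at H3K4me3 regions it was 0.901 in regions read in 2 of 3 columns. With the median as pseudocount, 8 regions passed 2-fold upward in WWD, 25 downward in WWD, 15 upward in R and 76 downward in R. Of all regions, 0.523%, 1.59%, 1.07% and 4.60% passed, in the same order. With the 1st percentile as pseudocount the counts were 171, 334, 185 and 489. Of all regions, 12.7%, 22.6%, 12.2% and 32.6% then passed. With libraries centred the counts were 142, 179, 206 and 270, and 10.5%, 12.2%, 13.6% and 18.0% of all regions passed.

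No paired analysis was possible because a construct had just 1 column for each target, and leaving out a replicate could not be done either. The lower edge of rounding, also added after seeing the data, kept 24 of 24 values. Chromosome 8 blocks held as few as 42 Dnmt3a2 reads, which limits statements on single blocks.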
